A study of Mus musculus with 6 samples.

Results

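The genes described are the proteasome and immunoproteasome genes of the mouse: all protein-coding genes in the deposited expression table whose symbol starts with Psma, Psmb, Psmc, Psmd, Psme, Psmf or Psmg. The rule found 50 of the 35275 genes listed, and no expression value was used to choose them. Of these, 48 had a mean of at least 1 FPKM (fragments per kilobase of gene, scaled to the reads of the library) over the 6 libraries and entered the tests. The rule works by symbol, so it also took in Psmc3ip, which encodes a partner of the ATPase Psmc3 with a role in meiotic recombination and is no subunit, and Psme2b, a gene almost identical to Psme2.

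RNA was sequenced from B cells of the spleen of C57BL/6 mice aged 6 to 8 weeks, with 3 libraries from wild-type (WT) mice and 3 from mice with an altered CD40 ligand, named CD40LΔ5. All mice of both groups had been given SRBC (sheep red blood cells, an antigen that calls on T cell help) and were sampled on day 8. CD40 ligand is carried by helper T cells and binds CD40 of the B cell, and the comparison asks how B cells differ when it is altered. Whether each library came from its own mouse is not given in the labels, so p-values measure the spread between these libraries.

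The proteasome degrades proteins marked with ubiquitin. Its 20S core is a barrel of alpha and beta rings, in which 3 beta subunits (Psmb5, Psmb6 and Psmb7) cut the protein chain, while a 19S cap with ATPase and non-ATPase subunits recognises, unfolds and feeds in the substrate. Lymphoid cells and cells exposed to interferon-gamma make the immunoproteasome, in which Psmb8, Psmb9 and Psmb10 take the place of Psmb5, Psmb6 and Psmb7 and change which peptides are cut for presentation on MHC class I.

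The grouping of the libraries bears on every direction given here. In the authors' deposited table of group means, the MUT column averages CD40LΔ5 replicate 2 with WT replicates 1 and 2, and the WT column averages WT replicate 3 with CD40LΔ5 replicates 1 and 3, to within 3.33e-08 FPKM. The sources therefore placed only WT replicate 3 and CD40LΔ5 replicate 2 alike. Each comparison is given in both groupings, by the labels (CD40LΔ5 minus WT) and by the table (MUT minus WT), and a library always keeps its label's name. Both comparisons use the same 6 libraries and are not independent. Reads on genes numbered 24320080 to 27866611 per library, and the summed level of 6 B cell markers was 4282 to 4952 FPKM in all of them. Cd40lg, the gene altered in these mice, is expressed mainly by T cells and was at 0.12 to 0.53 FPKM (4 to 17 reads), too low to check either grouping.

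Promoters were read first for the elements that the known regulators of these genes bind. RefSeq windows on GRCm38.p6, from 250 bases before to 50 bases after the start site, were present for 42 of the 50 genes. An ETS core (CCGGAAG), bound by the ETS factors common at housekeeping promoters, was in 15 of the 42 (35.7%) and in 9.93% of 27025 genes with such a window. An interferon-stimulated response element (GAAA and GAAA with any 2 bases between) was in 5 (11.9%, against 3.99% of all), an antioxidant response element (TGACNNNGC), through which the factor Nrf1 or Nrf2 can raise proteasome genes, in 6 (14.3%, against 13.99%), and a gamma-activated site (TTCNNNGAA) in 3 (7.14%, against 9.55%). An NF-kB site (GGG and TTTCC with any 2 bases between) was in 0 of the 42, against 1.89% of all genes. Both strands were searched, and 0 matches of different motifs overlapped. A match is a run of letters and not a shown binding site. The windows of 30 bases below, 5′ to 3′ on the strand of the gene and with the match in capitals, show the interferon elements of all 5 genes that hold one, since interferon is the classical inducer of the immunoproteasome.
Psme1: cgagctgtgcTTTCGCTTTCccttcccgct
Psmg4: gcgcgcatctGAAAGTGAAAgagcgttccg
Psmb3: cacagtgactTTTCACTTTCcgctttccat
Psmd4: ataaccaaccTTTCCATTTCtgtggcgcct
Psmd9: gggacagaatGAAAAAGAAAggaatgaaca

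These lie at chr14:55578493-55578522 (plus strand), chr13:34162969-34162998 (plus), chr11:97703261-97703290 (plus), chr3:95042675-95042704 (minus) and chr5:123228021-123228050 (plus), respectively. The matches of Psme1 and Psmg4 begin at bases 10 and 16 of the transcript, and those of Psmb3, Psmd4 and Psmd9 begin 163, 80 and 159 bases before it. Psmb8 held a gamma-activated site 97 bases before its start (chr17:34198088-34198117, plus strand), and Psmb9, Psmb10 and Psme2 held no interferon element or gamma-activated site in this window, which says nothing about sites elsewhere. Psmb5 and Psmb6, by contrast, held antioxidant response elements at 47 and 9 bases before the start (chr14:54618023-54618052, minus strand, and chr11:70525338-70525367, plus strand). The windows of Psmb8, Psmb5 and Psmb6 are shown because these genes are described below. The 3 ETS cores shown with them are of genes picked, after values were seen, from those whose table groups do not overlap. Psmc2 and Psmg3 are also of that kind and hold ETS cores that are not shown.
Psmb8: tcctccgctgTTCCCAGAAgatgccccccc
Psmb5: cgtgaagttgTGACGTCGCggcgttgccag
Psmb6: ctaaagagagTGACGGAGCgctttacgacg
Psmc6: aggcgggccagCCGGAAGgggcggagccag
Psmd6: cagagacgcgaCCGGAAGtcagactggcgg
Psme4: gtggccccgccCCGGAAGtgacttgaggcc

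Proteasome genes were abundant and even across the 6 libraries. The median of the 48 genes' mean levels was 54.4 FPKM, against 11.1 FPKM over the 11252 genes tested, and their median coefficient of variation (SD over mean, n = 6) was 8.06%, against 11.4%. Among genes at 10 FPKM or more it was 8.04% for 45 proteasome genes and 9.03% for all 5937. By the deposited gene lengths Psmb1, a structural beta subunit, was highest at 190 ± 18.2 FPKM, and Psmg3, a chaperone of core assembly, was lowest at 2.49 ± 0.373 FPKM (SD, n = 6). Psmd11, part of the lid of the cap, varied least, with a coefficient of variation of 3.88%, and Psmb5 varied most, at 26.7%.

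**Figure D1:**
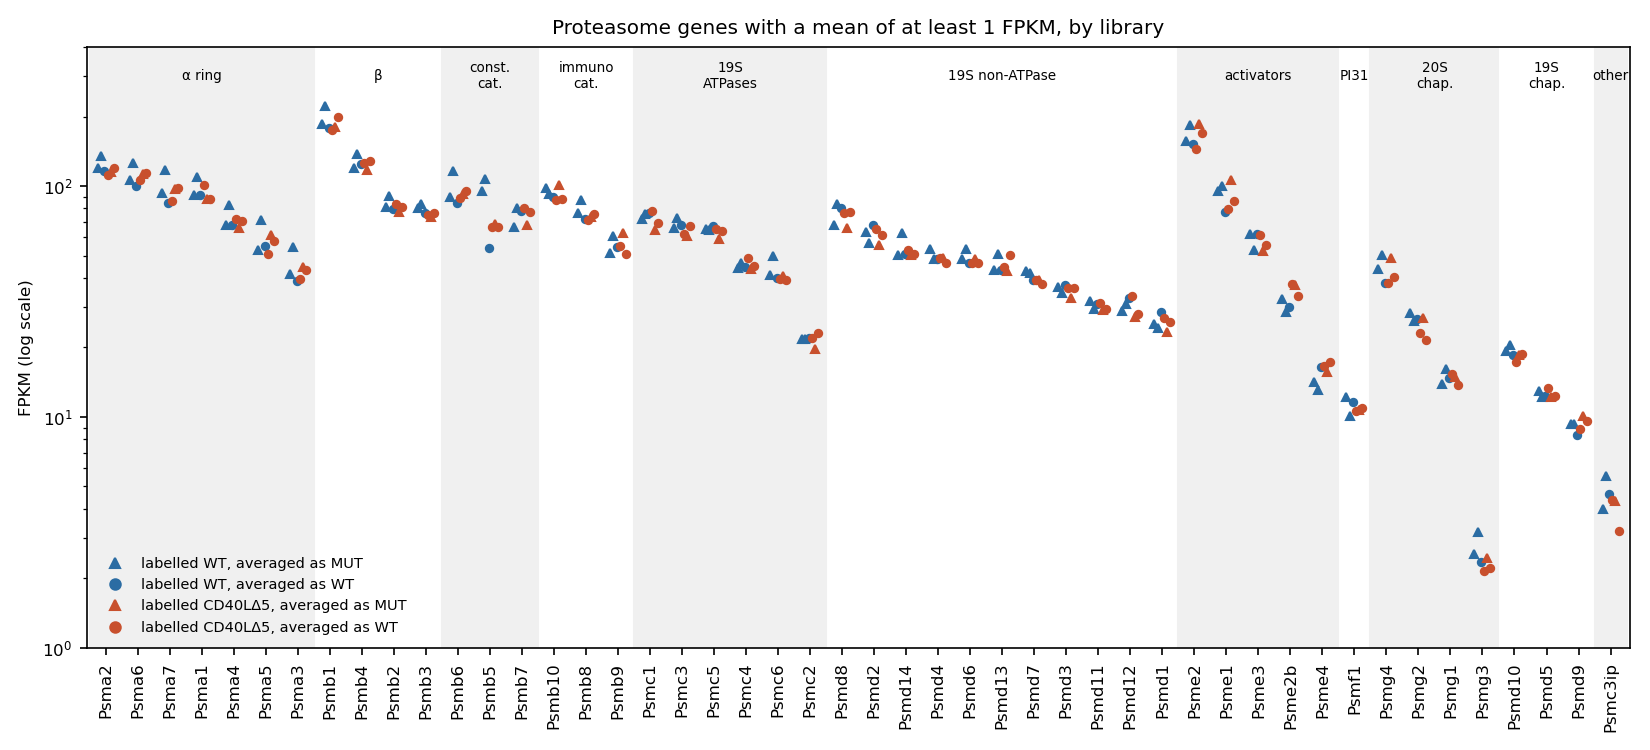
FPKM (log axis) of the 48 tested proteasome genes, 1 point per library, grouped by role (shading) and ordered by mean. Colour gives the label and shape the column of the table of means; the highest and lowest points lie furthest apart for Psmb5 (1.99-fold), where WT replicates 1 and 2 lie above and WT replicate 3 below the rest, followed by Psmc3ip (1.74-fold).

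Among the 8 alpha ring genes, which form the gate and outer rings of the core, 7 had means of 43.7 FPKM (Psma3) to 119 FPKM (Psma2). The other was Psma8, the subunit of the testis form, at 0.02 to 0.30 FPKM (1 to 14 reads). Psmb11, the catalytic subunit that belongs to the thymus cortex, was listed at 0 in all 6 libraries. The 4 structural beta genes ran from Psmb3 at 77.5 FPKM to Psmb1 at 190 FPKM, the ATPases of the cap from Psmc2 at 21.7 to Psmc1 at 72.6 FPKM, and its 11 non-ATPase subunits from Psmd1 at 25.7 to Psmd8 at 75.2 FPKM. Among the assembly chaperones, those of the core lay between Psmg3 and Psmg4 (43.2 FPKM), and those of the cap between Psmd9 (9.25 FPKM) and Psmd10 (18.8 FPKM). Psmc3ip was at 4.36 ± 0.780 FPKM. It shares 385 exon bases with Mlx, on the opposite strand at 18.2 FPKM. The library kit does not mark strand, so reads there cannot be told apart. Of the 50 genes, 14 share exon bases with another listed gene, 7 of them with one of at least 1 FPKM. Levels given here by role use the deposited gene lengths, and the order within a role can change with the length. With the length of the principal coding transcript in GENCODE M21, an alternative chosen after seeing the data, Psma2 stood at 38.7 instead of 119 FPKM, the lowest of the 7 tested alpha ring genes. Psmb3 then stood at 153 FPKM, above Psmb1 at 112 FPKM, and the highest of the 50 genes was Psme2 at 165 FPKM, next to Psme1 at 162 FPKM.

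All 3 immunoproteasome subunits were present in every library. Psmb8 had 76.3, 87.2 and 71.8 FPKM in the WT libraries (replicates 1, 2 and 3), and 70.95, 73.3 and 75.9 FPKM in the CD40LΔ5 libraries. In the same order of libraries, Psmb9 was at 51.3, 60.6, 54.6, 55.3, 62.6 and 50.7 FPKM, and Psmb10 at 98.5, 92.4, 89.3, 87.4, 101 and 87.6 FPKM. Both label groups overlapped for all 3, and by the table only Psmb10 had groups that did not overlap, with the 3 MUT libraries at 92.4 FPKM or more and the others at 89.3 FPKM or less.

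Psmb5, which the Psmb8 product replaces, was the variable subunit. The 3 WT libraries had 95.0, 107 and 54.0 FPKM of it, and the 3 CD40LΔ5 libraries 66.2, 68.6 and 66.3 FPKM. WT replicates 1 and 2 were thus the highest libraries and WT replicate 3 the lowest, so that the WT libraries enclosed the CD40LΔ5 libraries, while MUT libraries all lay above the rest. The values rest on 1297 to 2271 reads per library.

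Psmb6 was at 89.8, 116, 84.6, 88.6, 92.7 and 95.5 FPKM and Psmb7 at 66.3, 80.3, 77.7, 80.5, 67.9 and 77.1 FPKM in the same order of libraries. Their groups overlapped in either grouping. WT replicate 2 was the highest library for Psmb6, and WT replicate 1 and CD40LΔ5 replicate 2 were the lowest for Psmb7.

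Ratios within a library set each immuno subunit against the one it replaces. Psmb8 over Psmb5 was 0.803, 0.813 and 1.33 in the WT replicates and 1.07, 1.07 and 1.15 in the CD40LΔ5 replicates, so it was above 1 in 4 of 6 libraries. The 2 libraries below 1 were those with high Psmb5. By the table the MUT libraries lay below the rest (0.895 ± 0.151 against 1.18 ± 0.134, SD, n = 3 each), and by the labels the groups overlapped. The table gap was narrow, since CD40LΔ5 replicate 2 (MUT side) and CD40LΔ5 replicate 1 (other side) were both at 1.07. Psmb9 over Psmb6 was 0.524 to 0.675, below 1 in every library, and its groups overlapped both ways. Psmb10 over Psmb7 was 1.09 to 1.49, above 1 in 6 of 6 libraries, with WT replicate 1 (1.49) and CD40LΔ5 replicate 2 (1.48) far above the other 4 (at most 1.15). By the table the MUT libraries were above the rest (1.37 ± 0.193 against 1.12 ± 0.0335), but only just, since WT replicate 2 on the MUT side and WT replicate 3 on the other were both at 1.15.

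The sum of the immuno subunits was 214 to 240 FPKM and that of the constitutive ones 216 to 303 FPKM. As a share of all 6, the immuno subunits held 47.9% ± 2.32 (SD, n = 6), from 44.2% in WT replicate 2 to 50.8% in CD40LΔ5 replicate 2. The share was 48.6% ± 1.95 in CD40LΔ5 and 47.2% ± 2.87 in WT libraries by the labels, and 47.5% ± 3.30 in MUT and 48.3% ± 1.45 in WT libraries by the table, and the groups overlapped in both. The mean log2(FPKM + 1) of the 3 immuno subunits minus that of the 3 constitutive ones differed by 0.08 between the label groups and by -0.05 between the table groups, less than the SD of this quantity over the 6 libraries (0.13).

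**Figure D2:**
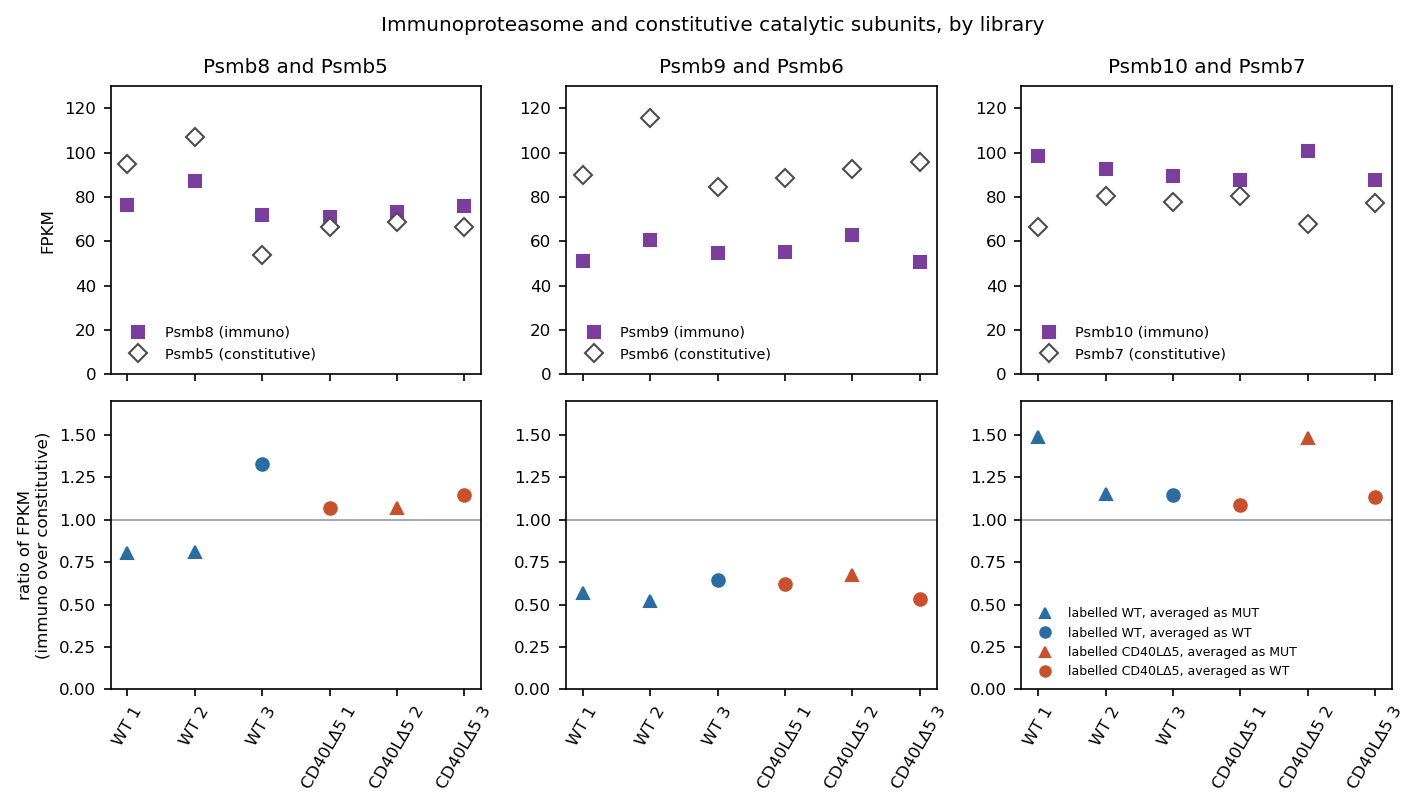
Upper panels: FPKM of each immunoproteasome subunit (squares) and the constitutive subunit it replaces (diamonds) in each library. Lower panels: their ratio, with a line at 1; Psmb8 over Psmb5 is below 1 only in WT replicates 1 and 2, Psmb9 over Psmb6 is below 1 and Psmb10 over Psmb7 above 1 in all 6 libraries.

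Levels of different genes compare only per length, and their order here depended on the length used. By the deposited lengths the means ran Psmb6 (94.5 FPKM), Psmb10 (92.6), Psmb5 (76.2), Psmb8 (75.9), Psmb7 (74.96) and Psmb9 (55.9). Psmb6 and Psmb10, and likewise Psmb5, Psmb8 and Psmb7, differed by less than their SD over libraries. The length listed for Psmb9 is 2884 bases, 2.13 times that of its principal coding transcript in GENCODE M21 (1352 bases). With principal transcript lengths for all 6 genes, an alternative chosen after seeing the data, Psmb9 moved from the lowest subunit in 5 of 6 libraries to the highest in 4 of 6, at a mean of 119 FPKM, and the immuno share became 53.2% ± 2.32. Psmb9 over Psmb6 then averaged 1.05 instead of 0.595 and was above 1 in 4 of 6 libraries. Psmb9 also shares 212 exon bases with Tap1, a peptide transporter gene on the opposite strand at 81.4 FPKM, whose start site is 226 bases away. Psmb7 shares 405 exon bases with Nek6 (1.10 FPKM) and Psmb8 shares 498 with Gm20496 (0.91 FPKM), both on the opposite strand. The kit does not mark strand, so reads there cannot be told apart.

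The activators, which open the core without the ubiquitin-binding cap, include the interferon-inducible PA28 pair Psme1 and Psme2, nuclear Psme3 and the large single-chain Psme4. Psme2 was the second most abundant of the 50 genes by listed length, at 156, 184 and 151 FPKM in the WT and 145, 186 and 170 FPKM in the CD40LΔ5 replicates. Psme1 was at 94.8, 100 and 77.0 FPKM in the WT and 79.2, 106 and 86.1 FPKM in the CD40LΔ5 replicates. For both genes CD40LΔ5 replicate 2 was the highest library, and for Psme1 the 3 MUT libraries lay above the rest while the label groups overlapped.

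Psme4, also called PA200, was at 14.1, 13.1 and 16.4 FPKM in the WT and 15.6 to 17.2 FPKM in the CD40LΔ5 replicates. Its MUT libraries all lay below the others. Psme3 was at 57.7 ± 4.64 FPKM, and Psmf1, which encodes the inhibitor PI31, at 11.02 ± 0.746 FPKM (SD, n = 6), with overlapping groups both ways.

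By the labels, 0 of the 48 genes passed an adjusted p of 0.05 (limma, Benjamini-Hochberg over 11252 genes), where 0% of all genes passed. Their adjusted p was 1.00 throughout. At an unadjusted p under 0.05 there was 1 gene of 48, or 2.08%, against 1.24% of all genes. Groups did not overlap for 1 gene, against 4.29% of all genes. Both counts refer to Psme2b, at 32.3, 28.6 and 29.8 FPKM in the WT and 37.7, 37.4 and 33.5 FPKM in the CD40LΔ5 replicates (log2 difference 0.25 ± 0.09, SE, adjusted p = 1.00 in limma). All 3 CD40LΔ5 libraries lay above all WT libraries. Over 794 aligned bases the Psme2b transcript is 99.4% identical to that of Psme2, so its reads may have been split with Psme2 (log2 difference 0.02 ± 0.13) in an unknown way. The sources used here do not say how reads that match both genes were counted. Psme2b also shares 41 exon bases with 9930111J21Rik1, a gene on the same strand at 13.4 FPKM.

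The label differences of the other genes ranged down to -0.29 ± 0.24 for Psmb5 (67.0 ± 1.32 FPKM in CD40LΔ5 against 85.4 ± 27.9 FPKM in WT, SD, n = 3), and 45 of 48 lay within 0.2 of 0. The value of Psmb5 was -0.095 without WT replicate 2, -0.18 without WT replicate 1 and -0.58 without WT replicate 3. Psmg2, a chaperone of the alpha ring, differed by -0.17 ± 0.10, Psme4 by 0.18 ± 0.10, Psmc3 by -0.12 ± 0.08, Psmc3ip by -0.21 ± 0.15 and Psmg3 by -0.17 ± 0.13 (log2, SE). None of these passed the adjusted threshold.

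By the table, 0 of 48 passed an adjusted p of 0.05, where 0.0267% of all genes did (3 genes, none of them a proteasome gene). The adjusted p of the 48 genes ran from 0.343 to 0.975 in limma. At an unadjusted p under 0.05 there were 4 of 48, or 8.33%, against 13% of all genes. The count was 4 by voom on the recovered reads, 5 with median-ratio scaling or length correction, 7 with quantile normalization and 1 without WT replicate 3 and CD40LΔ5 replicate 2 together. Over all 11252 genes it was 1463 in the main fit, 1496 by voom, 1551 with median-ratio scaling or length correction and 1523 with quantile normalization. Without that pair of libraries it was 295 of 11216 genes, in a fit that equals the label fit with the signs turned. Groups did not overlap for 11 genes, or 22.9%, against 16.9% of all genes. MUT libraries were above the rest for Psmb5, Psmb10, Psmc6, Psmd6, Psmd7, Psme1, Psmg3 and Psmg4 and below for Psmc2, Psmd1 and Psme4.

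The largest table difference among the 48 genes was that of Psmb5, at 90.3 ± 19.8 FPKM in MUT and 62.2 ± 7.10 FPKM in WT libraries (SD, n = 3 each), a log2 difference of 0.51 ± 0.17 (SE, adjusted p = 0.355 in limma). Psme1 followed with 100 ± 5.69 against 80.8 ± 4.76 FPKM, a log2 difference of 0.31 ± 0.08 (adjusted p = 0.343 in limma). Psmg4, which pairs with Psmg3 as a chaperone of core assembly, was at 43.6, 50.3 and 38.1 FPKM in the WT and 38.1, 48.99 and 40.3 FPKM in the CD40LΔ5 replicates, and differed by 0.28 ± 0.08 with the MUT libraries highest. Psme1 and Psmg4, with the smallest p of the 48 genes in this grouping, are also the pair printed above whose interferon element lies just after the start. This pairing was drawn after the values were seen, and neither gene was called (adjusted p = 0.343 and 0.344 in limma). Whether the element plays a part was not tested, and the other 3 genes that hold one (Psmb3, Psmd4 and Psmd9) had overlapping groups.

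On the lower side Psme4 differed by -0.22 ± 0.08 (14.3 ± 1.25 against 16.8 ± 0.433 FPKM, adjusted p = 0.356 in limma) and Psmd1, a scaffold of the cap's base, by -0.15 ± 0.07. For the catalytic subunits the table differences were 0.14 ± 0.07 for Psmb10, 0.11 ± 0.09 for Psmb8, 0.11 ± 0.10 for Psmb9, 0.14 ± 0.11 for Psmb6 and -0.14 ± 0.09 for Psmb7. Leaving out 1 library moved these values, to 0.028 for Psmb6 and 0.038 for Psmb8 without WT replicate 2, to 0.058 for Psmb9 without CD40LΔ5 replicate 2 and 0.20 without WT replicate 1, and to -0.22 for Psmb7 without WT replicate 2 and -0.086 without WT replicate 1. That of Psmb6 was -0.0060 once values were corrected for gene length. Psmb5 was the only catalytic gene at an unadjusted p under 0.05.

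**Figure D3:**
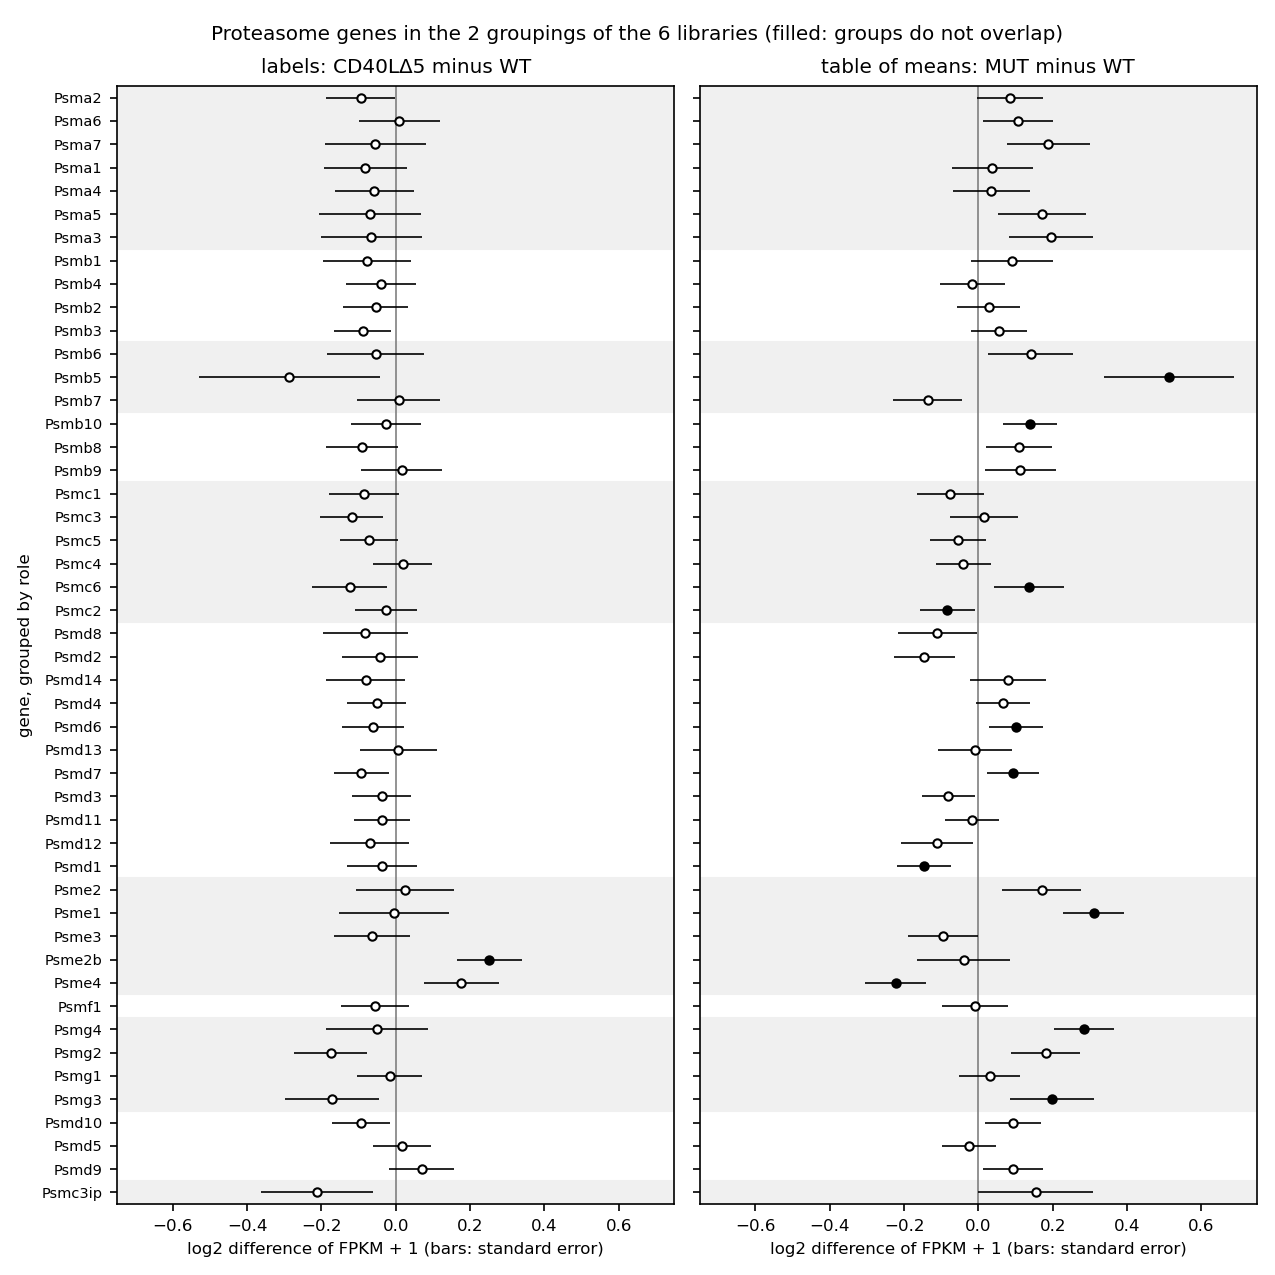
Log2 difference of FPKM + 1 for the 48 tested proteasome genes with standard errors, by the labels (left) and by the table of means (right), in blocks by role. Filled points are genes whose groups do not overlap, 1 on the left (Psme2b) and 11 on the right; most points lie within 0.2 of 0.

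The signs of the small differences leaned to opposite sides in the groupings. Every library but WT replicate 3 and CD40LΔ5 replicate 2 changes sides between the groupings, so an opposite lean is partly built in. By the labels the difference was negative for 38 of 48 genes and positive for 10 (3 under median-ratio scaling), with a median of -0.06, against a median of 0.01 and 55.5% positive over all genes tested. Under median-ratio scaling 46.3% of all genes were positive by the labels. By the table it was positive for 30 of 48 genes, or 62.5% (16 after a correction for gene length and 25 under median-ratio scaling), with a median of 0.06, against 0.05 and 62.0% over all genes. The share of all genes positive by the table was 49.5% after the length correction and 51.5% under median-ratio scaling. WT replicate 2 weighed on both. Without it, 23 of 48 were positive by the labels, with a median of -0.0073, and 26 by the table, with a median of 0.018. Of all genes, 57.3% and 67.0% were then positive by the labels and by the table. Under median-ratio scaling the table median was 0.013.

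WT replicate 2 was the highest library for 25 of the 48 genes, and for 17.1% of all genes tested. CD40LΔ5 replicate 2 was the lowest for 19, and for 12.9% of all. The median deviation of WT replicate 2 from a gene's mean over the libraries was 0.13 (log2) for proteasome genes and 0.00 for all genes. Gene length moved with it. Proteasome genes are short, with a median listed length of 1529 bases against 2860, and among all genes tested the median deviation of WT replicate 2 was 0.11 for the 3579 under 2000 bases and -0.04 for the 7673 longer ones. The 34 proteasome genes under 2000 bases had 0.15 and the 14 longer ones -0.04. In CD40LΔ5 replicate 2 these 34 and 14 genes had -0.05 and -0.04. The short and the longer ones of all genes tested had 0.04 and 0.06 there. After the length correction, 10 of 48 proteasome genes were positive by the labels, as in the main fit, against 48.5% of all genes. By the table the count fell from 30 to 16. The part of length in these results was not tested beyond the corrected fit.

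**Figure D4:**
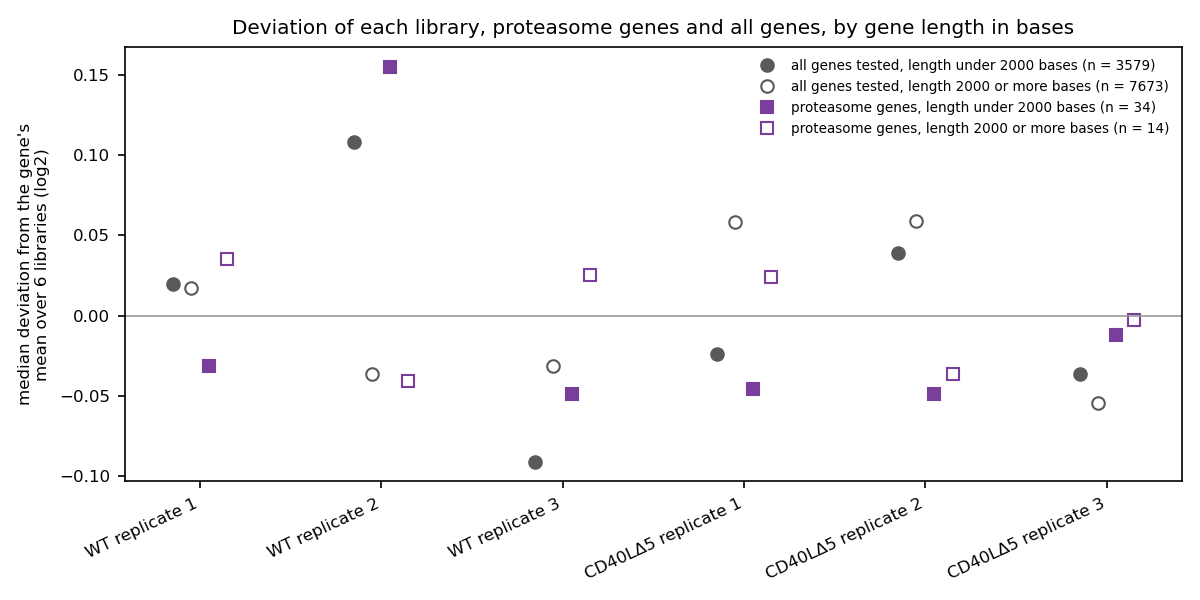
Median log2 deviation of each library from the gene's mean over the 6 libraries, for proteasome genes (squares) and all genes tested (circles), under 2000 bases (filled) and longer (open). In WT replicate 2 the short genes of both sets lie at 0.15 and 0.11 and the long ones at -0.04.

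By role, the table differences were positive for 7 of 7 alpha ring genes (3 after length correction), 3 of 4 structural beta genes (0 after it), 3 of 3 immuno subunits (3), 2 of 3 constitutive catalytic subunits (1), 4 of 4 core chaperones (3), 2 of 3 cap chaperones (1), 2 of 6 ATPases (1), 4 of 11 non-ATPase cap subunits (1) and 2 of 5 activators (2). The label differences were positive for 1 of 7 alpha ring genes, 0 of 4 structural beta genes, 1 of 3 immuno subunits, 1 of 3 constitutive catalytic subunits, 0 of 4 core chaperones, 1 of 6 ATPases and 1 of 11 non-ATPase cap subunits, but for 2 of 3 cap chaperones (1 under median-ratio scaling) and 3 of 5 activators (2 under it, 4 under quantile normalization). Under median-ratio scaling the positive ones among the alpha ring, immuno, constitutive catalytic, ATPase and non-ATPase genes came to 0. Over all genes tested, 62.0% were positive by the table (49.5% after length correction) and 55.5% by the labels (46.3% under median-ratio scaling). None of the genes counted by role was called, and the counts describe signs only.

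Genes around the proteasome were taken from lists chosen with earlier results of these data known. Of 25 tested partners and regulators (ubiquitin genes, shuttle factors, deubiquitinases and the p97 segregase), 0 were called in either grouping, 10 were positive and 15 negative by the labels, and 9 positive and 16 negative by the table (4 positive after length correction). By the table, Vcp, the p97 segregase that pulls ubiquitinated proteins out of complexes, was at 72.3 ± 6.95 FPKM in MUT and 89.9 ± 5.62 FPKM in WT libraries (log2 difference -0.31 ± 0.10, adjusted p = 0.3498 in limma), with groups that did not overlap. Rps27a, which encodes ubiquitin fused to a ribosomal protein, was at 1215 ± 108 and 937 ± 76.0 FPKM (0.37 ± 0.12). Of the 25 partners, 2 had MUT libraries above the rest and 4 below, against 16.9% of all genes without overlap in either direction.

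Of 14 class I antigen processing genes, 0 were called, with 9 positive by the labels and 6 by the table. Over all genes tested, 55.5% and 62.0% were positive. Of the 14, 1 had MUT libraries above the rest and 3 below, against 16.9% of all genes without overlap in either direction. Nlrc5, the transactivator of class I genes and of Psmb9, had the smallest p by the table. It was at 11.7, 13.4 and 9.98 FPKM in the WT and 11.7, 22.4 and 9.78 FPKM in the CD40LΔ5 replicates, so that 1 library, CD40LΔ5 replicate 2, stood above the rest.

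Interferon response genes stood highest in that same library. The summed level of the 33 listed was 926 FPKM in CD40LΔ5 replicate 2 and 548 to 649 FPKM in the other libraries. Of the 31 tested, 30 were positive by the table, with a median of 0.52, 18 had MUT libraries above the rest and 17 had an unadjusted p under 0.05, but 0 were called. Among all genes tested, 62.0% were positive by the table, 16.9% had no overlap in either direction and 13% had an unadjusted p under 0.05. By the labels 28 were positive (27 under median-ratio scaling), against 55.5% of all genes, with a median of 0.15 and 0 were called. Irf7, a transcription factor of this response, was at 43.6 FPKM in CD40LΔ5 replicate 2 and at 10.99 to 21.1 FPKM in the others. The highest Psme1, Psme2, Psmb9 and Psmb10 values fell in CD40LΔ5 replicate 2, and that of Psmb8 in WT replicate 2. CD40LΔ5 replicate 2 was the highest library for 5 of the 48 proteasome genes and for 30.1% of all genes tested. What part interferon had in them was not tested.

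Markers of other cells moved between the libraries as well. Summed levels ranged from 39.1 FPKM (WT replicate 1) to 163 FPKM (CD40LΔ5 replicate 1) for 8 germinal centre genes, 1157 to 5656 FPKM for 8 plasma cell genes, 76.6 to 173 FPKM for 8 cycling genes, 20.8 to 28.9 FPKM for 7 T cell genes, 19.2 to 51.2 FPKM for 6 NK cell genes, 73.1 to 277 FPKM for 8 macrophage genes, 45.9 to 594 FPKM for 9 neutrophil genes, 3.83 to 10.7 FPKM for 5 dendritic cell genes and 312 to 1180 FPKM for 7 erythroid genes. By the table every tested gene of the germinal centre, plasma cell, cycling and neutrophil lists was lower in sign, and every one of the NK cell, macrophage and erythroid lists higher, also under the 3 other scalings (quantile, median-ratio and length). Higher by the table were also 6 of 6 B cell genes (5 under median-ratio scaling or length correction). The same held for 5 of 6 T cell genes (4 under quantile normalization) and 2 of 3 dendritic cell genes. These are signs, and no list was tested as a set. By the table, 7 of 8 cycling, 3 of 7 germinal centre, 4 of 9 neutrophil and 1 of 8 plasma cell genes had an unadjusted p under 0.05 in limma. The same held for 3 of 6 NK cell, 3 of 6 T cell and 1 of 8 macrophage genes. For the B cell, dendritic cell and erythroid lists the count was 0. Over all genes tested the share was 13%. Table groups overlapped for every germinal centre, plasma cell, dendritic cell and erythroid gene tested. They did not overlap for 3 of 8 cycling, 1 of 9 neutrophil, 3 of 6 NK cell and 2 of 8 macrophage genes, against 16.9% of all genes. Nor did they for 4 of 6 T cell and 2 of 6 B cell genes. The highest plasma cell sum was in WT replicate 2, on the MUT side, and the highest erythroid sum in CD40LΔ5 replicate 3, on the other. By the labels, 6 of 7 germinal centre genes and 7 of 9 neutrophil genes (6 under median-ratio scaling or quantile normalization) were positive, as were 3 of 8 cycling genes (1 under each other scaling), 2 of 6 NK cell genes and 0 of 8 plasma cell, 0 of 8 macrophage and 0 of 7 erythroid genes. So were 5 of 6 B cell genes (4 under median-ratio scaling, 6 under quantile normalization). For T cell genes it was 1 of 6 (0 under either of these), and for dendritic cell genes 0 of 3. No marker found was at 0 in every library, and 0 genes of these lists were called. In bulk RNA, fewer cells of a type and less RNA per cell cannot be told apart, and the part of other cells in the proteasome values was not tested.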

How the data were processed

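Per the labels' protocols, B cells were isolated with a magnetic Pan B kit and libraries made from total RNA with a TruSeq kit, which does not mark strand. The authors deposited FPKM per gene and library, with gene lengths, and FPKM means as MUT and WT columns. CASAVA 1.8.2, STAR, DESeq2 and the build mm9 stand in the submitters' processing notes, but the deposited coordinates are those of GRCm38: all 50 genes overlap their GENCODE M21 entry, 35 exactly. How reads were counted is not given in the sources used here.

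From FPKM, length and the smallest step, reads were recovered that came out whole for 100% of values (tolerance 0.01 reads). A single read of a 1 kb gene is worth 0.0359 to 0.0411 FPKM. These depths cover counting error only.

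limma 3.58.1 in R 4.3.3 (lmFit, eBayes with trend) was fitted to log2(FPKM + 1) of the 11252 genes whose mean reached 1 FPKM. Tests were two-sided, and p was adjusted by Benjamini-Hochberg and held to 0.05. Log2 differences with this pseudocount understate changes of low genes. Groups were 3 against 3, without covariates, and the procedure was tested on simulated data. Ratios and sums over genes were not tested.

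The members and lists were chosen with earlier results of these data known. Genes named were Psmb5 to Psmb10, the activators, the inhibitor, the highest and lowest of each role, the 6 smallest p of each comparison, genes under 1 FPKM, and up to 5 genes per list. Those named by role in single sentences, such as Psmd11, and genes whose groups do not overlap were chosen after their values were seen. Alternatives were other pseudocounts, filters, scalings, a length correction (loess, span 0.3), voom on recovered reads, a replicate block and leaving out libraries. Principal transcript lengths were added after seeing the data. Paaf1 and Ahsp were listed but not found. Sequences come from RefSeq.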

Additional observations from a re-analysis of the deposited data

How the results depend on the processing

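The counts of proteasome genes called stayed at 0 under every alternative, 17 by the labels and 16 by the table. Of 236 log2 differences of 14 named genes by the labels 22 changed sign, 16 of them when 1 library was left out, and of 192 by the table (12 genes) 1 did, that of Psmb6 with the length correction (-0.0060). The adjusted p of named genes over these alternatives was 0.918 to 1.00 by the labels and 0.253 to 1.00 by the table. By the labels, median-ratio scaling gave -0.018 for Psmb7, -0.0092 for Psmb9, -0.00059 for Psme2 and 3 positive proteasome genes, and quantile normalization gave 0.024 for Psme1. Without WT replicate 3 and CD40LΔ5 replicate 2 together, the only libraries placed alike, 2 genes of all tested were called by the labels instead of 0. Without this pair both groupings are the same contrast with the signs turned, so the table fit called 2 as well. Leaving out 1 library or this pair gave label differences of -0.12 to 0.013 for Psmb10, -0.15 to 0.081 for Psmb6, -0.075 to 0.11 for Psmb7, -0.073 to 0.086 for Psmb9, -0.24 to 0.084 for Psme1 and -0.11 to 0.12 for Psme2, 7 to 23 positive proteasome genes (23 without WT replicate 2), and -0.0042 to 0.16 for immuno minus constitutive. By the table, leaving out 1 library gave -0.15 to 0.037 for immuno minus constitutive and 1 to 16 called genes of all tested (13 without WT replicate 2, 16 without CD40LΔ5 replicate 1 and 1 without CD40LΔ5 replicate 2). Of all genes the table calls were 5 with a pseudocount of 0.1 FPKM, 1 with no filter, with quantile normalization and with voom, and 0 at 5 FPKM or more. The length correction gave 16 positive proteasome genes, a median of -0.049 and an immuno minus constitutive difference of 0.011 by the table. Principal transcript lengths moved the immuno share to 53.2%, Psmb8 over Psmb5 to 1.26 and Psmb9 over Psmb6 to 1.05. The cause of these changes was not tested.

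Replicate numbers are shared by the label groups, and only those numbered 3 deviated together (r across genes of -0.38, 0.06 and 0.38 for numbers 1, 2 and 3), so the numbers were not taken to pair the libraries. With a replicate block the label comparison called 0 genes of all tested and 0 proteasome genes, with 210 instead of 139 at an unadjusted p under 0.05.

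With 3 libraries per group, the SE by the labels was 0.07 to 0.24 (log2), and even differences well above their SE were not called. By the labels Psme2b differed by 0.25 ± 0.09 (SE), with an unadjusted p of 0.024 in limma, and was not called. In the grouping by the deposited means, Psme1 differed by 0.31 ± 0.08, with an adjusted p of 0.343 in limma. Differences of this size are therefore not excluded for genes that were not called. Psma8 and Cd40lg rest on too few reads for comparison.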
